A study of Homo sapiens with 11 samples.

Results

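The genes described here are the 37 aminoacyl-tRNA synthetases among the 38021 genes of the count table. They were found by name, either the one-letter code of an amino acid followed by ARS, with or without a final 1 or 2, or one of the irregular names EPRS, EARS2, PARS2, FARSA, FARSB and FARS2. Names that end in 2 mark the 17 mitochondrial enzymes, and the other 20 genes encode cytosolic enzymes or their subunits. The naming rule itself uses no measured value. All 37 genes passed the filter on low counts, which left 17793 genes for testing.

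The cells were HEK293T, an established line derived from human embryonic kidney, and RNA was sequenced after 6 h of treatment. The groups were vehicle (0.1% DMSO), 500 nM thapsigargin (Tg, an inhibitor of the ER calcium pump), 10 µM AA147, and AA132 at 0.1, 0.3, 1, 3, 6, 10, 15 or 30 µM. Both code names stand for pharmacological regulators of protein homeostasis in the endoplasmic reticulum (ER), and the series title concerns their selectivity between arms of the unfolded protein response. Each of the 11 conditions has 3 count columns, called libraries here, and the labels do not say whether these came from separate cultures. P-values therefore measure the spread between these libraries, which may be technical.

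A synthetase joins 1 kind of amino acid to its tRNA, and the charged tRNA is what the ribosome uses. Human cells carry a cytosolic set and a mitochondrial set, all encoded in the nucleus, and GARS and KARS are known to supply the glycine and lysine enzymes of both compartments. When the ER stress kinase PERK phosphorylates the initiation factor eIF2α, the transcription factor ATF4 accumulates. ATF4 is known for binding elements at genes of amino acid supply, many cytosolic synthetase genes among them, and thapsigargin activates this route by emptying the ER of calcium.

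Library totals ran from 32.27 M counts, in library 3 of AA132 at 10 µM, to 37.96 M counts, and the second lowest was 36.36 M. Vehicle library 1, AA132 10 µM library 1 and, less so, AA147 library 1 stood apart from the other libraries of their conditions. Chi-square per degree of freedom between libraries of a condition, about 1 for counting error alone, was 49.9 and 64.5 for the pairs with vehicle library 1, 36.4 and 39.1 for those with AA132 10 µM library 1, 23.9 and 24.8 for those with AA147 library 1, and 8.01 in the median of all 33 pairs. The HEK293T markers VIM, NEFL, NEFM and LIN28B averaged 1248, 68.2, 39.7 and 17.2 CPM in vehicle, whereas PAX2 was low at 0.876 CPM. CPM is the usual depth-scaled count, here with TMM factors between libraries. Under Tg VIM (-0.79, log2) and NEFL (-0.51) were lower and NEFM (0.38) higher, and their part in the results below was not tested. The markers of other cell types, PTPRC, CD3E and ALB, averaged at most 0.0277 CPM in vehicle. Each library is RNA of a whole culture, so fewer cells with a transcript and less of it per cell cannot be told apart.

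In vehicle the 2 sets differed in level. Per kilobase of transcript, cytosolic genes had a median of 116 CPM/kb (range 20.1 to 238) and mitochondrial genes a median of 25.6 CPM/kb (range 3.26 to 93.5), and the 13 highest of the 37 were all cytosolic. TARS, the threonine enzyme, was highest at 238 ± 4.65 CPM/kb (SD, n = 3), followed by KARS for lysine at 188 ± 11.96 CPM/kb, MARS for methionine at 163 ± 11.6 CPM/kb and IARS for isoleucine at 159 ± 9.74 CPM/kb. IARS2, which charges the mitochondrial isoleucine tRNA, led its set at 93.5 ± 4.09 CPM/kb. The lowest were MARS2 at 7.69 ± 0.70, WARS2 at 4.45 ± 0.24 and PARS2, the mitochondrial proline enzyme, at 3.26 ± 0.31 CPM/kb. FARSB, a subunit of the phenylalanine enzyme, was the lowest cytosolic gene at 20.1 ± 0.93 CPM/kb, below its partner subunit FARSA at 136 ± 19.2 CPM/kb. The size of that gap depends on the lengths used, 6761 bases for FARSB and 1811 bases for FARSA. Of the 36 pairs of neighbours in this order, 25 had overlapping libraries, so only the coarse order holds, and TARS stood above KARS and KARS above MARS without overlap. The lengths are those of 1 reference transcript per gene and were not measured in these cells.

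The first comparison, Tg against vehicle, gives the response to ER stress. Most cytosolic synthetase transcripts rose and the mitochondrial set did not follow. Of the 20 cytosolic genes, 15 were higher and 4 lower, and of the 17 mitochondrial genes 3 were higher and 6 lower, while 31.2% of all genes tested were called (16.2% higher, 15.0% lower). The median log2 fold change was 0.58 over the cytosolic genes, -0.03 over the mitochondrial genes and 0.0048 over all genes tested. Called means an adjusted p (Benjamini-Hochberg, over all genes) under 0.05 in the quasi-likelihood test of edgeR, the source of all adjusted p-values below. The libraries of Tg and vehicle did not overlap for 18 cytosolic genes (14 higher, 4 lower) and 9 mitochondrial genes (3 higher, 6 lower), and for 38.2% of all genes tested (20.2% higher, 18.0% lower).

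WARS, the tryptophan enzyme (chromosome 14, 100333790 to 100376805), had the largest change. It measured 121.1, 119.9 and 121.2 CPM in the vehicle libraries and 388, 363 and 406 CPM under Tg. Every Tg library lay far above every vehicle library, and the log2 fold change was 1.68 (SE 0.07, adjusted p = 1.85e-18). AARS, the alanine enzyme (chromosome 16, 70251983 to 70289707), measured 335, 317 and 294 CPM in vehicle and 731, 738 and 775 CPM under Tg. Its log2 fold change was 1.25 (SE 0.06, adjusted p = 5.74e-17), again with no overlap.

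The serine, glycine and cysteine enzymes roughly doubled. SARS (chromosome 1, 109213918 to 109238182) had 259.5, 234 and 224 CPM in the vehicle libraries and 492, 499 and 512 CPM in the Tg libraries, a log2 fold change of 1.07 (SE 0.07, adjusted p = 3.46e-14). GARS (chromosome 7, 30580533 to 30634033), the glycine enzyme of both compartments, rose from 275, 253 and 226.5 CPM to 514, 524 and 540.2 CPM, a log2 fold change of 1.06 (SE 0.08, adjusted p = 5.26e-13). CARS (chromosome 11, 3000922 to 3057613) rose from 109, 98.6 and 104 CPM to 205, 207 and 202 CPM, a log2 fold change of 0.98 (SE 0.06, adjusted p = 5.17e-15). The lowest Tg library exceeded the highest vehicle library in each of these 3 genes.

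IARS (chromosome 9, 92210207 to 92293854) measured 690.2, 763 and 685 CPM in vehicle and 1367, 1319 and 1367 CPM under Tg (log2 fold change 0.92, SE 0.07, adjusted p = 8.91e-13). EPRS, whose product joins both glutamate and proline to their tRNAs (chromosome 1, 219968600 to 220046530), went from 376, 464 and 432 CPM to 765, 769 and 793 CPM (log2 fold change 0.87, SE 0.07, adjusted p = 2.16e-11). YARS, the tyrosine enzyme (chromosome 1, 32775237 to 32818031), went from 269, 249 and 232 CPM to 433, 435 and 442 CPM (log2 fold change 0.81, SE 0.08, adjusted p = 6.03e-10). The libraries of the 2 conditions did not overlap for any of the 3 genes. Smaller rises were called for MARS (0.69), NARS for asparagine (0.64), TARS (0.52), LARS for leucine (0.49), FARSB (0.37), DARS for aspartate (0.20) and FARSA (0.18), on the log2 scale. MARS shares 2.32% of its exonic length with DDIT3, a stress gene on the opposite strand whose log2 fold change was 3.62, and use of strand in counting is not given in the sources used here. YARS2 (18.3%), HARS (11.3%), GARS (10.9%), WARS (7.31%) and CARS (5.77%), among others, share more, with the largest neighbour on the opposite strand. HARS2 shares 9.52%, with its largest neighbour on the same strand. The effect of shared exons on these values was not tested.

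KARS, DARS and FARSA changed least among the cytosolic genes. KARS measured 401, 362 and 357 CPM in vehicle and 375, 369 and 376 CPM under Tg, so its libraries overlapped, and its log2 fold change was 0.00 (95% interval -0.11 to 0.12). DARS measured 130.1, 144.5 and 140.4 CPM in vehicle and 161, 158 and 158 CPM under Tg, with no overlap. FARSA measured 285, 217.5 and 238.5 CPM in vehicle and 275, 271 and 292 CPM under Tg, and vehicle library 1 lay among the Tg libraries. The 4 cytosolic genes that fell were RARS for arginine (-0.34), VARS for valine (-0.28), QARS for glutamine (-0.26) and HARS for histidine (-0.24). RARS went from 257 ± 14.8 to 202 ± 4.48 CPM and VARS from 615 ± 84.2 to 508 ± 19.7 CPM.

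**Figure D1:**
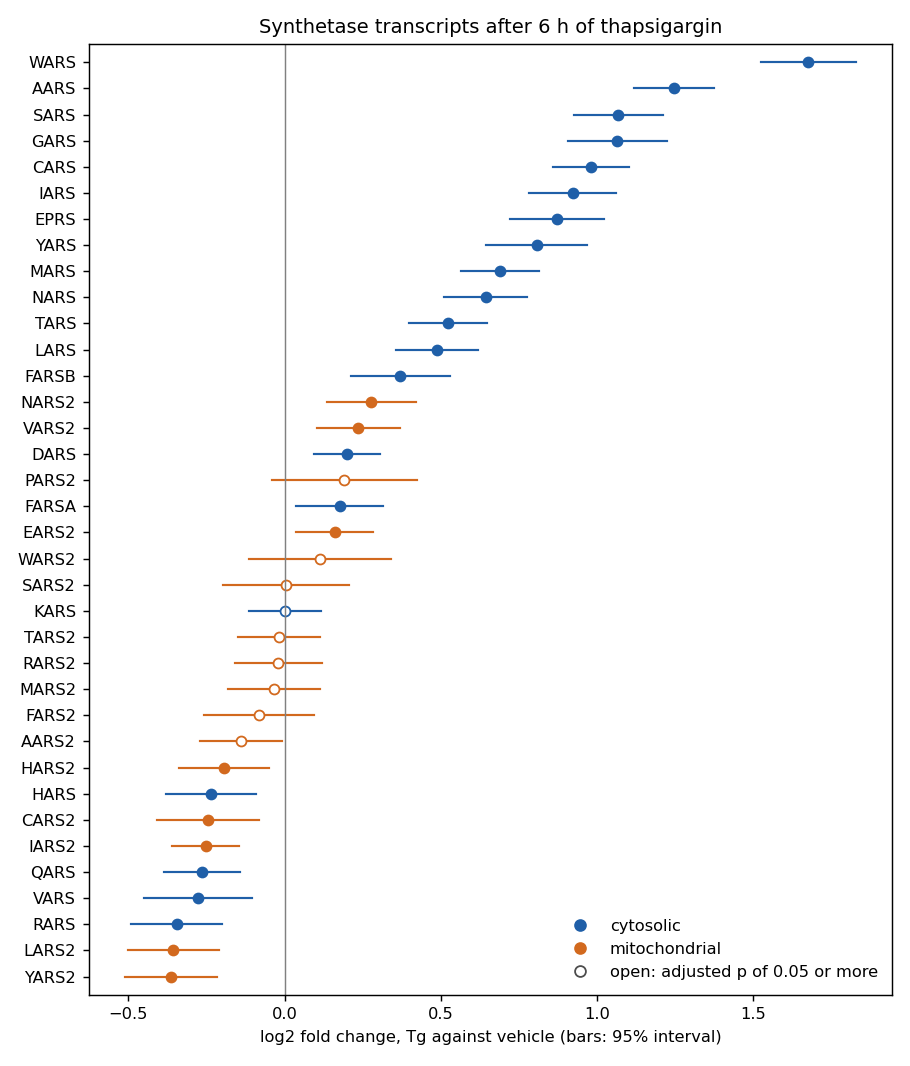
Log2 fold change of 36 synthetase genes under Tg against vehicle, with 95% intervals of the edgeR fit as bars, cytosolic genes in blue and mitochondrial genes in orange, and open symbols for an adjusted p of 0.05 or more. The upper 13 rows are all cytosolic, from WARS at 1.68 to FARSB at 0.37, and every mitochondrial gene shown lies between -0.36 and 0.28.

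Changes in the mitochondrial set were small and went both ways. YARS2 (chromosome 12, 32727490 to 32755897) measured 124, 109 and 111 CPM in vehicle and 88.7, 87.9 and 90.7 CPM under Tg, a log2 fold change of -0.36 (SE 0.07, adjusted p = 0.000188). LARS2 (chromosome 3, 45388561 to 45554726), the mitochondrial leucine enzyme, measured 51.8, 54.9 and 51.0 CPM in vehicle and 42.3, 39.7 and 41.2 CPM under Tg (log2 fold change -0.36, SE 0.07, adjusted p = 0.000211). All Tg libraries were below all vehicle libraries for both genes.

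NARS2, the mitochondrial asparagine enzyme (chromosome 11, 78435620 to 78575194), moved the other way. It measured 43.6, 51.1 and 46.0 CPM in vehicle and 56.9, 57.2 and 56.5 CPM under Tg, a log2 fold change of 0.28 (SE 0.07, adjusted p = 0.00232). IARS2 (chromosome 1, 220094132 to 220148041) measured 315, 343.5 and 332 CPM in vehicle and 273, 279 and 278.5 CPM under Tg (log2 fold change -0.25, SE 0.05, adjusted p = 0.000288). CARS2, the mitochondrial cysteine enzyme (chromosome 13, 110641412 to 110713603), measured 79.6, 57.4 and 60.7 CPM in vehicle and 57.2, 54.5 and 55.2 CPM under Tg (log2 fold change -0.24, SE 0.08, adjusted p = 0.0179). The Tg libraries of all 3 genes lay outside the vehicle range, but for CARS2 the high vehicle library was library 1, one of the libraries that stood apart.

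Other mitochondrial calls were VARS2 (0.24) and EARS2 for glutamate (0.16) among the higher and HARS2 (-0.19) among the lower. PARS2 (0.19), WARS2 (0.11), SARS2 (0.01), TARS2 (-0.02), RARS2 (-0.02), MARS2 (-0.03), FARS2 (-0.08) and AARS2 (-0.14) did not pass the test. The values of VARS2 and SARS2, here and below, are uncertain. In GENCODE v44, VARS2 shares its whole exonic length and SARS2 77.5% of it with another annotated gene on the same strand. Whether the annotation used for counting holds those genes is not given.

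Without vehicle library 1 the cytosolic genes counted 15 higher and 2 lower and the mitochondrial genes 2 higher and 4 lower, where 28.4% of all genes were called. The calls that ended were HARS (adjusted p = 0.0721), VARS (0.132), CARS2 (0.326), HARS2 (0.108) and EARS2 (0.0512), and the mitochondrial median moved to 0.02. Without Tg library 2 the calls for HARS, VARS, CARS2 and HARS2 ended as well, at adjusted p = 0.0817, 0.0579, 0.0621 and 0.138, where 25.3% of all genes were called. EARS2 lost its call without any 1 of the 6 libraries (0.0512 to 0.254), FARSA without any 1 except vehicle library 1 (0.0567 to 0.428), HARS2 also without vehicle library 3 or Tg library 1 (0.0552 to 0.138 over its 4 libraries) and VARS2 without vehicle library 2 (0.0518). Without vehicle library 2, AARS2 was called lower (-0.21, adjusted p = 0.0172), where 31.9% of all genes were called. With only the Tg and vehicle libraries in the fit, 10 calls ended, with adjusted p-values from 0.0609 to 0.299: CARS2, DARS, EARS2, FARSA, HARS, HARS2, NARS2, QARS, VARS and VARS2. In that fit 18.6% of all genes were called.

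Summed over the set, cytosolic synthetase transcripts came to 6507 ± 215 CPM in vehicle and 9763 ± 211 CPM under Tg, a ratio of 1.5 with no overlap. The mitochondrial sum was 1473 ± 51.5 CPM in vehicle and 1370 ± 15.2 CPM under Tg, a ratio of 0.93. The cytosolic sum was 4.42 ± 0.08 times the mitochondrial sum in vehicle and 7.13 ± 0.13 times under Tg. The 3 Tg libraries, at 7.03, 7.07 and 7.28, lay above the vehicle libraries at 4.38, 4.51 and 4.36.

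For 14 amino acids both a cytosolic and a mitochondrial gene were measured, which allowed a comparison within each amino acid. The cytosolic gene had the larger log2 fold change under Tg for 11 of the 14, with a median difference of 0.78. The widest gap was for tryptophan, with 1.68 for WARS and 0.11 for WARS2, and then alanine, with 1.25 for AARS and -0.14 for AARS2. The log2 ratio of AARS to AARS2 was 1.36 ± 0.13 in vehicle and 2.75 ± 0.03 under Tg, and that of YARS to YARS2 was 1.13 ± 0.07 and 2.29 ± 0.01, with no overlap in either pair. These ratios are not corrected for length, so only their shift between conditions can be read. The exceptions were valine, arginine and histidine. VARS fell (-0.28) while VARS2 rose (0.24), RARS fell (-0.34) while RARS2 was at -0.02, and HARS and HARS2 were close together at -0.24 and -0.19. The differences within pairs were not tested.

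Several cytosolic synthetases are held in the multisynthetase complex, and the enzymes also divide into class I and class II by the fold of their catalytic domain. Under Tg, 5 of the 8 complex members (DARS, EPRS, IARS, KARS, LARS, MARS, QARS and RARS) were higher and 2 lower, with a median log2 fold change of 0.34. Of the 12 genes outside the complex, 10 were higher and 2 lower, with a median of 0.72. Of the 9 class I genes 6 were higher and 3 lower (median 0.69), and of the 10 class II genes 8 were higher and 1 lower (median 0.45), with EPRS left out because its product holds a domain of each class. These splits were not tested against each other.

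The promoters were searched because many of these genes moved together. RefSeq windows (assembly GRCh38.p14, 250 bases before to 50 bases after a gene's start) matched 30 of the 37 genes, 16 cytosolic and 14 mitochondrial, and genes without a match included AARS2, DARS, LARS, VARS, VARS2 and YARS. The letters TGATGNAA, on either strand, are a core of the element that C/EBP and ATF4 are known to bind together, and they were present for 7 of the 16 cytosolic genes (43.8%), 1 of the 14 mitochondrial genes (7.14%) and 4.46% of the 27305 genes with a window. The lines below give 30 bases on the strand of the gene, 5′ to 3′, with the match in capitals. The start meant is that of the RefSeq window with the match. CARS, GARS and TARS have 2 windows each, and only 1 of these holds the letters. Measured from GENCODE gene starts, every match but that of YARS2 lies after the start, from 14 bases for AARS to 14312 for GARS. A match that reads TTGCATCA or TTTCATCA is the same element on the opposite strand.
AARS, chr16:70289675-70289704, minus strand, 187 bases before the RefSeq start: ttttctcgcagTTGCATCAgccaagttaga
CARS, chr11:3057407-3057436, minus strand, 2 bases before the start: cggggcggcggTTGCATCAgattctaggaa
GARS, chr7:30594834-30594863, plus strand, 33 bases before the start: ttacgcggcgaTTTCATCAtgctccgagcc
IARS, chr9:92293692-92293721, minus strand, 13 bases before the start: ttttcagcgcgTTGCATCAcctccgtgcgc
MARS, chr12:57488053-57488082, plus strand, 4 bases before the start: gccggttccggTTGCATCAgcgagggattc
NARS, chr18:57621804-57621833, minus strand, 14 bases after the start: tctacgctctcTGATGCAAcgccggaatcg
TARS, chr5:33440956-33440985, plus strand, 2 bases after the start: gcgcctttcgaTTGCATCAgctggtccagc
YARS2, chr12:32756076-32756105, minus strand, 197 bases before the start: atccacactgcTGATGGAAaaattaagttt

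All 7 cytosolic genes in these lines rose under Tg, with a median log2 fold change of 0.92. Of the 9 cytosolic genes whose window lacks the letters, 5 rose and 3 fell, with a median of 0.18. WARS and SARS, at 1.68 and 1.07, were among those without a match. YARS2, the mitochondrial gene with a match, fell. The NRF1 palindrome, searched as 1 fixed run of letters for a factor known from genes of mitochondrial function, was in the windows of 0 of 16 cytosolic genes, 1 of 14 mitochondrial genes (MARS2) and 1.52% of all genes. A match describes letters in a window and not a bound site.

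AA132 was tested at 8 doses and AA147 at 1. Against vehicle, 0 of the 37 genes were called under AA147 at 10 µM, where 0.0225% of all genes were, and 3 cytosolic and 0 mitochondrial genes had an unadjusted p under 0.05 (RARS -0.16, HARS -0.16 and KARS -0.13). DESeq2 also called 0 of them, where it called 0.25% of all genes. The same held for edgeR without AA147 library 1 or without vehicle library 1, where 0.0% and 0.0608% of all genes were called. AA132 gave 0 calls among the 37 genes at 0.1, 0.3, 1, 3, 6 and 10 µM, where 0.0%, 0.0%, 0.0%, 0.118%, 1.07% and 1.41% of all genes were called. At these 6 doses the number with an unadjusted p under 0.05 was 1, 2, 3, 4, 5 and 9 of the 20 cytosolic genes and 0, 1, 0, 1, 2 and 5 of the 17 mitochondrial genes. The share of all genes under that unadjusted threshold is not given here. These counts and those for AA147 therefore cannot be set against a background, and no response is read from them. DESeq2 called 0 at the 4 lowest doses, 1 at 6 µM and 5 at 10 µM, where it called 2.4% and 3.43% of all genes at these 2 doses. The call at 6 µM was AARS, higher. At 10 µM AARS, CARS and NARS were higher and VARS and IARS2 lower. At 15 µM, where 2.76% of all genes were called (1.97% higher, 0.792% lower), AARS (0.30, adjusted p = 0.00376) and CARS (0.24, adjusted p = 0.0181) were higher and IARS2 (-0.19, adjusted p = 0.0443) was lower.

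Single libraries decided several of these counts. Without vehicle library 1, AARS was called at 6 µM (0.27, adjusted p = 0.0196), AARS (0.27), SARS (0.27), CARS (0.23) and IARS2 (-0.20) at 10 µM, and GARS (0.28) and SARS (0.28) in addition at 15 µM, where the share of all genes called rose to 2.8%, 3.6% and 3.51% in the same fits. Without vehicle library 2, VARS (-0.39) was lower and NARS (0.25) higher at 10 µM, and VARS (-0.38) and QARS (-0.22) were lower at 15 µM. The shares of all genes in these fits were 1.75% and 5.08%. VARS was also lower at 10 µM without 10 µM library 2 (-0.38) or 3 (-0.37) and at 15 µM without vehicle library 3 (-0.34). There the shares were 1.07%, 0.861% and 2.82%. At 15 µM the call for CARS ended without vehicle library 2 or any 1 of the 15 µM libraries (adjusted p = 0.0503 to 0.0787), and that for IARS2 without those or vehicle library 3 (0.0797 to 0.144).

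At 30 µM, 7 cytosolic genes were higher and VARS was lower, and 2 mitochondrial genes were lower, where 7.05% of all genes were called (3.86% higher, 3.19% lower). Libraries did not overlap with vehicle for 7 cytosolic genes above it, 3 cytosolic genes below it and 3 mitochondrial genes below it, and for 18.9% of all genes (10.1% above, 8.78% below). The median log2 fold change was 0.13 over the cytosolic genes, -0.05 over the mitochondrial genes and -0.0013 over all genes tested. GARS measured 320.3, 306 and 329 CPM at 30 µM, above all vehicle libraries, with a log2 fold change of 0.34 (SE 0.08, adjusted p = 0.00517). AARS measured 381, 398 and 407 CPM at 30 µM, also above vehicle, with a log2 fold change of 0.33 (SE 0.06, adjusted p = 0.00104). SARS measured 282, 283 and 329 CPM against a highest vehicle library of 259.5 CPM (log2 fold change 0.32, SE 0.07, adjusted p = 0.00354).

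CARS measured 124.5, 126 and 132.4 CPM at 30 µM, with all 3 libraries above vehicle (log2 fold change 0.30, SE 0.06, adjusted p = 0.00153). WARS measured 137, 140.5 and 157 CPM (log2 fold change 0.26, SE 0.07, adjusted p = 0.0230), and MARS 543, 525 and 550.0 CPM against vehicle values of 493, 434 and 440 CPM (log2 fold change 0.24, SE 0.06, adjusted p = 0.0110). DARS was the seventh, at 0.18. None of these overlapped with vehicle, and the largest of these rises was a fold of 1.27.

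VARS measured 487, 491 and 502 CPM at 30 µM and 711, 553 and 580.3 CPM in vehicle (log2 fold change -0.32, SE 0.09, adjusted p = 0.0188). The vehicle spread was wide, with library 1 far above the others. SARS2, the mitochondrial serine enzyme, measured 64.1, 55.9 and 60.8 CPM at 30 µM and 93.2, 64.9 and 69.5 CPM in vehicle (log2 fold change -0.33, SE 0.10, adjusted p = 0.0371), with the same high vehicle library. IARS2 measured 283.5, 288 and 288 CPM at 30 µM, all under the vehicle libraries (log2 fold change -0.21, SE 0.05, adjusted p = 0.0128).

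Without vehicle library 1 the calls for DARS (adjusted p = 0.0822), VARS (0.113) and SARS2 (0.281) ended, LARS2 was called lower (-0.23, adjusted p = 0.0437), and the cytosolic median was 0.07. In that fit the share of all genes called rose to 11.1%. The calls for DARS and SARS2 also ended without any 1 of the 30 µM libraries (adjusted p = 0.0518 to 0.102 and 0.0532 to 0.281 over 4 libraries each), VARS without library 1 or 2 (0.0660 to 0.113 over 3 libraries) and IARS2 without library 1 (0.0555). WARS lost its call without vehicle library 2, vehicle library 3 or 30 µM library 3 (0.0511 to 0.141) and MARS without vehicle library 2 or 3 (0.0509 to 0.0539), while AARS, CARS, GARS and SARS stayed called whichever library was left out. Without vehicle library 2, CARS2 was called lower (-0.29, adjusted p = 0.0260), where 7.68% of all genes were called. All 10 calls at 30 µM ended when only the 2 conditions compared entered the fit, with adjusted p-values from 0.136 to 0.402 and nearly the same fold changes. In that fit 0.449% of all genes were called.

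**Figure D2:**
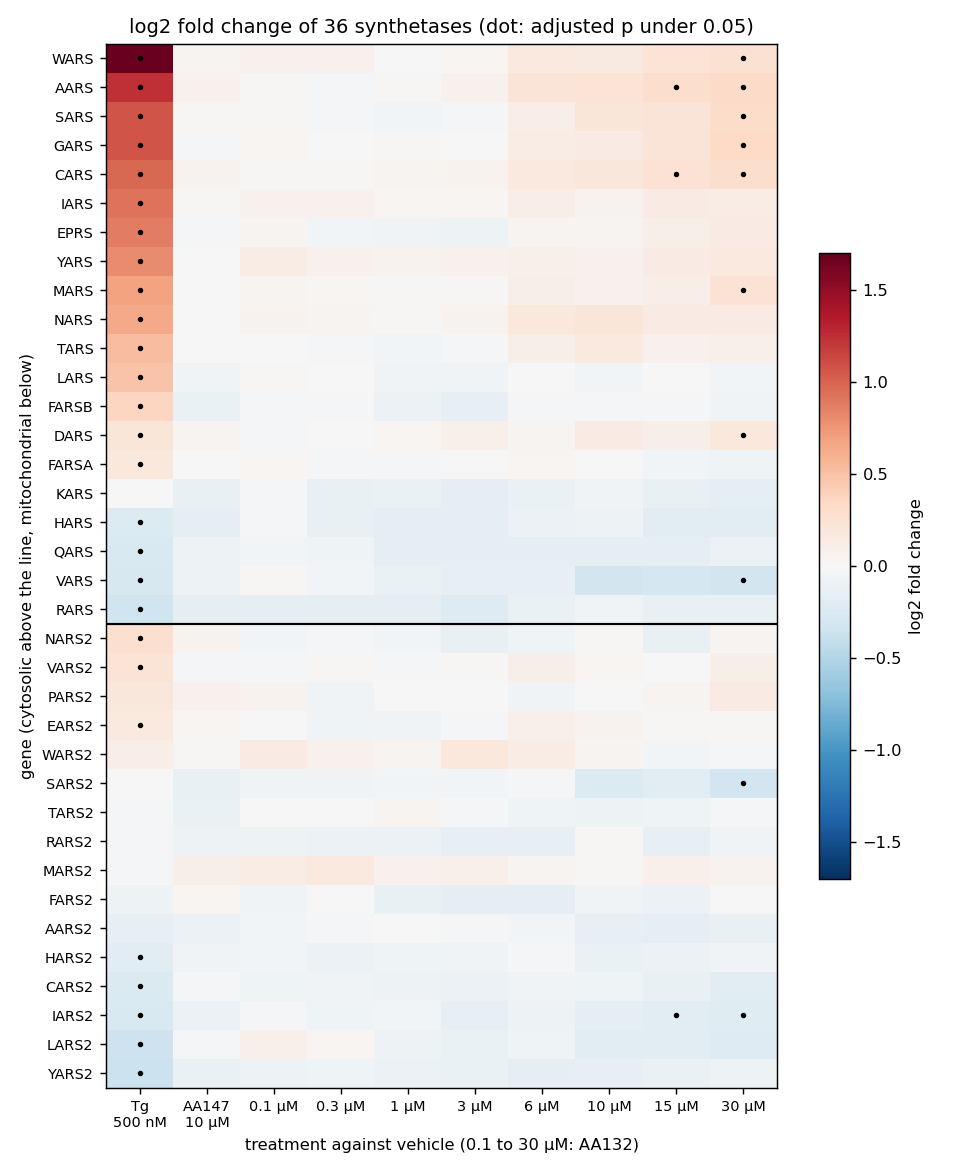
Log2 fold change against vehicle of 36 of the genes (rows, cytosolic above the line) in the 10 treatments (columns), on a colour scale centred at 0, with a dot where the adjusted p was under 0.05. The Tg column holds 27 dots and the widest range of colour, with values from -0.36 to 1.68. The AA147 column holds no dots, and dots under AA132 appear only at 15 µM (3) and 30 µM (10).

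A slope on log10 dose was fitted over the 24 AA132 libraries alone, which leaves the vehicle libraries out. Of the cytosolic genes 9 rose with dose and 1 fell, and of the mitochondrial genes 0 rose and 4 fell, where 18.7% of all genes were called (9.83% higher, 8.89% lower). The slope, as log2 change for each 10-fold rise in dose, was 0.15 for AARS (SE 0.02, adjusted p = 3.68e-06), 0.13 for SARS, 0.12 for CARS, 0.11 for GARS, 0.08 for WARS, 0.08 for DARS and 0.06 for MARS, TARS and NARS. At 0.1, 0.3, 1 and 3 µM, mean AARS was 319.6 ± 7.04, 310 ± 10.6, 320 ± 21.9 and 333 ± 9.76 CPM. At 6, 10, 15 and 30 µM it was 368 ± 3.05, 369 ± 41.45, 389 ± 11.6 and 396 ± 13.2 CPM, so the rise lay in the upper part of the dose range. Library 1 at 10 µM, at 322 CPM, lay within the vehicle range of 294 to 335 CPM.

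VARS had the steepest fall, -0.14 (SE 0.02, adjusted p = 3.51e-05). It averaged 626 ± 19.9 CPM at 0.1 µM, 557 ± 49.2 CPM at 3 µM and 494 ± 7.62 CPM at 30 µM. The mitochondrial genes that fell included LARS2 (-0.12, adjusted p = 0.000111), SARS2 (-0.09) and IARS2 (-0.07). LARS2 averaged 55.6 ± 4.36 CPM at 0.1 µM and 45.1 ± 1.61 CPM at 30 µM. Without the 30 µM dose the slope calls for MARS, NARS, TARS, WARS and SARS2 ended (adjusted p from 0.0582 to 0.326). Those for MARS (0.0514) and WARS (0.0590) also ended without 30 µM library 3, that for SARS2 without 30 µM library 2 (0.0648), and those for TARS and NARS without 6 and 9 different single libraries (0.0526 to 0.0664 and 0.0501 to 0.0733). Without AA132 10 µM library 1 the counts were the same.

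**Figure D3:**
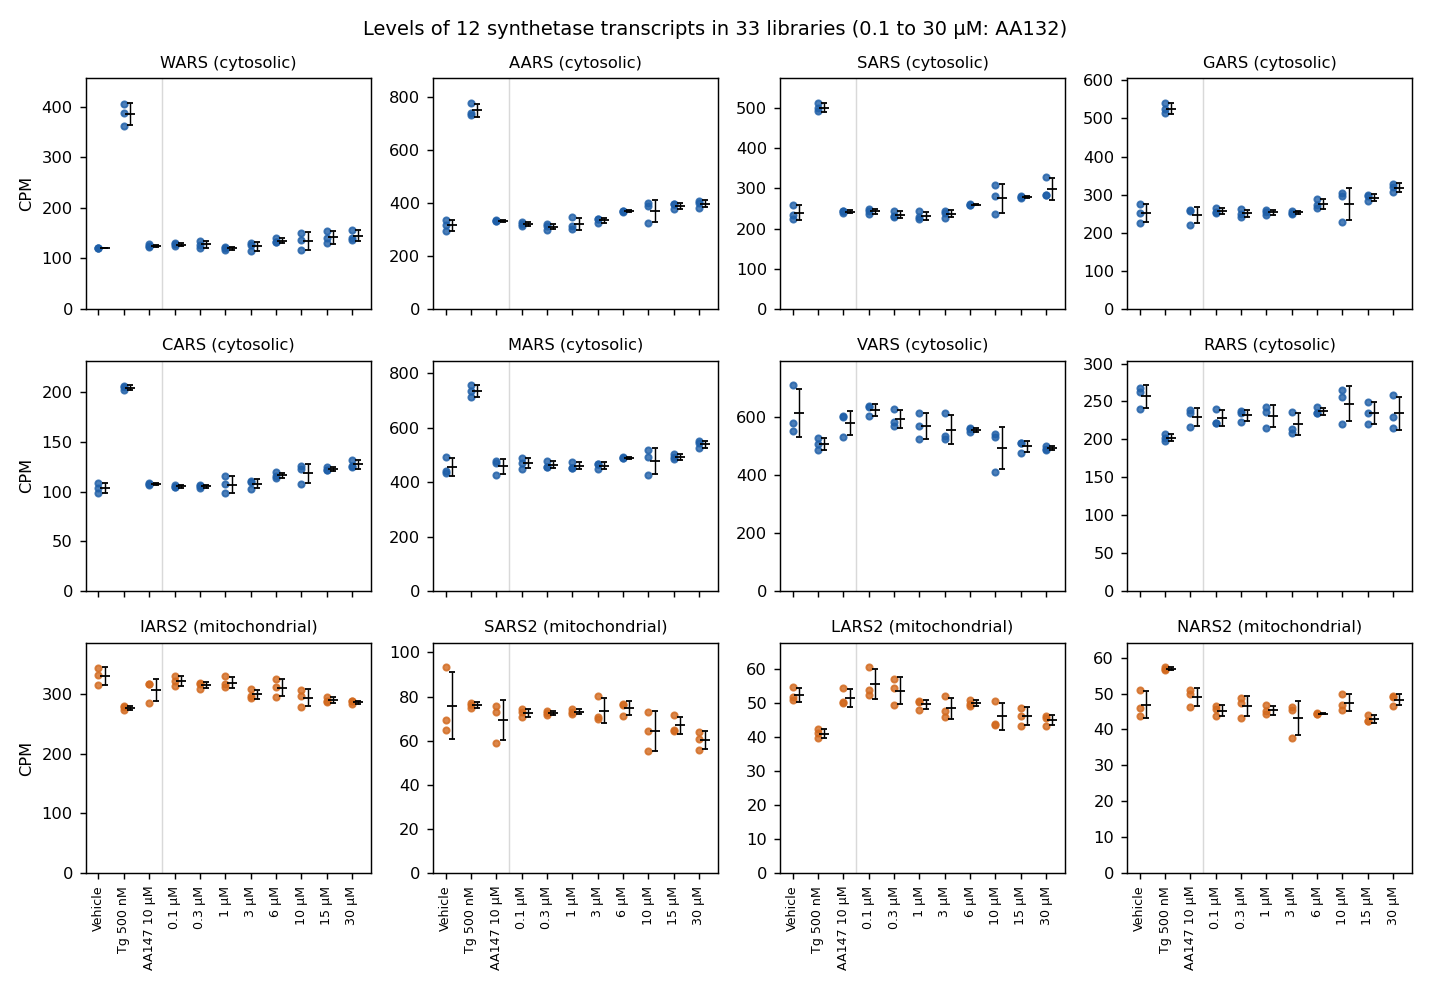
CPM of 12 synthetase genes in all 33 libraries, 3 points per condition with the mean and SD (n = 3) beside them, and each vertical axis starting at 0. WARS, AARS, SARS, GARS and CARS stand far above vehicle under Tg and climb slightly from 6 to 30 µM AA132, VARS, IARS2, SARS2 and LARS2 are lower at 30 µM than at 0.1 µM, and AA132 10 µM library 1 is the low point of its condition for AARS, GARS and VARS.

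AA132 and AA147 shared 1 dose, 10 µM, which allowed 1 pair of compounds to be compared. The test of their difference called 0 of the 37 genes, where 0.0674% of all genes were called, and 7 cytosolic and 1 mitochondrial genes had an unadjusted p under 0.05. For the unadjusted threshold the share of all genes is again not given. The fitted difference was above 0 for 18 of the 20 cytosolic genes (median 0.08) and 5 of the 17 mitochondrial genes (median -0.05), against a median of 0.0046 over all genes. The widest difference was that of VARS, at -0.23 (95% interval -0.40 to -0.06, adjusted p = 0.422), with 411, 541 and 530.4 CPM under AA132 and 531, 606 and 601 CPM under AA147. The widest above 0 was that of NARS, at 0.21 (95% interval 0.08 to 0.34, adjusted p = 0.312), with 349, 399.8 and 447 CPM under AA132 and 329, 347 and 360.0 CPM under AA147. The libraries of the compounds overlapped for both genes. With intervals this wide, the missing calls do not show that the compounds act alike. DESeq2 also called 0 of the 37, where it called 0.467% of all genes.

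Library 1 of AA132 at 10 µM decided this comparison. Its cytosolic median, as log2 CPM minus the vehicle mean, was -0.14, against 0.11 and 0.19 in libraries 2 and 3. Without it, NARS (0.29, adjusted p = 0.0188) and SARS (0.28, adjusted p = 0.0476) were higher under AA132 than under AA147, and AARS, CARS, NARS, SARS and TARS were higher than in vehicle, with 0.426% and 1.88% of all genes called. Without AA147 library 1, whose own cytosolic median was -0.08 against 0.01 and 0.02 in the others, AA132 against AA147 still gave 0 calls among the 37, where 0.133% of all genes were called, and the cytosolic median was 0.05. What sets these libraries apart was not tested.

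**Figure D4:**
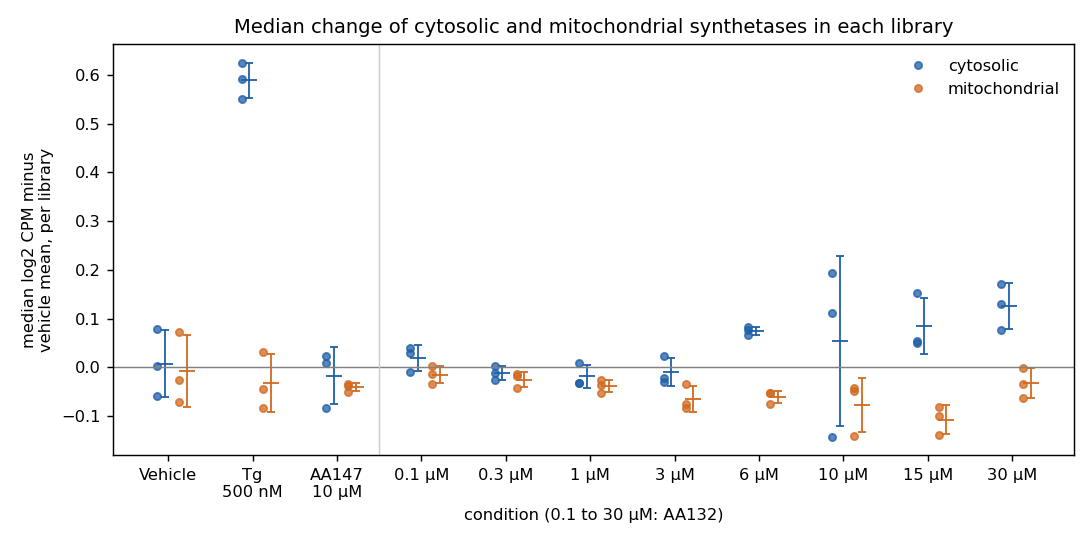
Median over the cytosolic (blue) and over the mitochondrial (orange) genes of log2 CPM minus the vehicle mean, 1 point for each library with the mean and SD (n = 3) of each condition beside the points. The cytosolic medians of the Tg libraries lie between 0.55 and 0.62, those at 6, 15 and 30 µM AA132 between 0.05 and 0.17, and at 10 µM they spread from -0.14 to 0.19.

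Within libraries, the cytosolic median minus the mitochondrial median was 0.02 ± 0.05 in vehicle, 0.02 ± 0.05 under AA147 and 0.62 ± 0.06 under Tg. With AA132 at 0.1, 0.3, 1 and 3 µM it was 0.03 ± 0.01, 0.01 ± 0.03, 0.02 ± 0.04 and 0.05 ± 0.04. At 6, 10, 15 and 30 µM it was 0.14 ± 0.02, 0.13 ± 0.12, 0.19 ± 0.04 and 0.16 ± 0.04. The libraries at 6, 15 and 30 µM all lay above the highest vehicle library, at 0.07, as did libraries 2 and 3 at 10 µM (0.15 and 0.24) but not library 1 (-0.0004). At 3 µM, library 2 (0.10) lay above that vehicle library as well, and libraries 1 and 3 (0.05 and 0.01) did not.

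Tg and AA132 at 30 µM were compared directly, although the agents and doses differ. Of the cytosolic genes 15 were higher under Tg and 2 lower, and of the mitochondrial genes 2 were higher and 2 lower, where 29.8% of all genes were called (15.5% higher, 14.3% lower). The largest differences were 1.41 for WARS (adjusted p = 3.89e-16), 0.92 for AARS, 0.79 for IARS, 0.75 for SARS and 0.74 for EPRS. IARS, EPRS and YARS, called under Tg, were at 0.13, 0.13 and 0.17 at 30 µM and were not called there. RARS (-0.21) and QARS (-0.17) were lower under Tg, as was YARS2 (-0.28) among the mitochondrial genes, and SARS2 (0.34) and NARS2 (0.24) were higher. The call for KARS (0.15) ended without any 1 of the 6 libraries (adjusted p = 0.0665 to 0.189), QARS without Tg library 1 or 2 or 30 µM library 2 or 3 (0.0507 to 0.158), RARS without Tg library 1 or 2 or 30 µM library 3 (0.0544 to 0.179), NARS2 without 30 µM library 1 (0.0501) and SARS2 without 30 µM library 2 (0.0605).

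The comparison of Tg with vehicle and the dose slope share no library, so they can be set side by side. Across the 37 genes, Pearson's r between the log2 fold change under Tg and the slope was 0.79 and Spearman's rho 0.78. Within the cytosolic genes r was 0.75, within the mitochondrial genes 0.62, and over 17551 genes tested in both it was 0.23. The points share gene length, expression level and base composition, and genes are not independent replicates.

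Other genes of tRNA charging were taken from lists. XPOT, which exports tRNA from the nucleus, had 233, 279 and 260.0 CPM in vehicle and 666, 691 and 669 CPM under Tg, with no overlap (log2 fold change 1.39, SE 0.06, adjusted p = 4.19e-18). AA132 at 10, 15 and 30 µM gave log2 fold changes of 0.32, 0.39 and 0.53 for XPOT, all called. In its list of 5 synthetase-like, editing and export genes, AARSD1 (0.41) and DTD1 (0.22) rose under Tg as well, and DTD2 (0.11) and TARSL2 (-0.11) did not pass the test. The scaffold of the multisynthetase complex counted 0 of 3 genes called under Tg, with AIMP1 at 0.18, AIMP2 at 0.16 and EEF1E1 at -0.18. Under Tg 31.2% of all genes were called.

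Of 5 cytosolic elongation factor genes, EEF2 (0.20) was the only one called under Tg, where 31.2% of all genes were called (16.2% higher, 15.0% lower). The 4 partners of mitochondrial charging, which amidate mischarged tRNA or formylate the initiator tRNA, counted 0 higher and 2 lower (GATB -0.27, GATC -0.21). The 7 mitochondrial translation factor genes counted 2 higher (MTIF2 0.44, MTRF1L 0.25) and 2 lower (TSFM -0.26, TUFM -0.24). As a reference, all 18 genes of a list of known integrated stress response targets rose under Tg (median 1.97, with TRIB3 at 3.88, SLC7A11 at 3.65 and DDIT3 at 3.62). At 30 µM AA132, 17 of the 18 rose (median 0.72), where 3.86% of all genes were called higher. The medians of the cytosolic synthetases, 0.58 and 0.13, were smaller. Under AA147, 1 of the 18 was called, SLC7A5, where 0.0225% of all genes were called.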

How the data were processed

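The authors deposited expected counts (estimated reads per gene, linear, not scaled between libraries, per the file headers). The build is GRCh38.p7, per the submitters' processing notes, and the aligner, counter, annotation and use of strand are not given in the sources used here. The lowest value, 0.009, fills 43.5% of cells and was set to 0, and 3.22% of cells are fractional and were rounded. Of 38074 entries, 98 sharing 45 names were summed, and 28 with names turned into dates were kept apart, which left 38021 genes.

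Tests used edgeR 4.0.16 in R 4.3.3 (quasi-likelihood F-test, TMM, filterByExpr, 17793 genes, all 11 conditions in 1 fit, no replicate block), with Benjamini-Hochberg adjustment over all genes within each of 13 comparisons and calls under 0.05. The slope used the 24 AA132 libraries (17554 genes). The common dispersion of 0.00826 corresponds to 9.09% variation among a condition's libraries. Intervals of fold changes are 95%, and log2 CPM used a prior count of 2. The pipeline was tested on simulated data. DESeq2 1.42.0 was an alternative, among others in the closing section.

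Positions and transcript lengths are those of GENCODE v44 on GRCh38, matched by symbol, and played no part in counting. Promoter sequences come from RefSeq.

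The members and all lists were chosen with earlier results of these data known, so no p-value is given over a list. Counts, medians and sums cover all 37 members, and 1 member is not reported here by name or in the figures of single genes. Library values are given for the 8 called cytosolic genes with the largest change under Tg, up to 6 called mitochondrial genes without overlap, up to 8 genes called under AA132, and the 3 cytosolic genes that changed least. From each list, 2 to 4 genes with the largest change under Tg are named. LARS2 and VARS by dose, the genes called without a library, MARS beside DDIT3, the other shared exons and the level ranking were added after their values were seen.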

Additional observations from a re-analysis of the deposited data

How the results depend on the processing

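No member's call changed direction under any alternative. Of the 76 calls, 75 were kept with DESeq2's size factors in edgeR, 73 with library totals, 63 without the filter and 76 with DESeq2's own test, and 39 of 62 with only the compared conditions in the fit. The labels do not say whether replicate numbers pair the libraries, and correlations could not settle it, because values of opposite sign cancel in a mean. Same-numbered libraries of different conditions correlated at 0.0135 on average, from -0.622 to 0.532, with 43 of 165 pairs over 0.1. Differently numbered ones averaged -0.00595, and 15 of 33 libraries correlated best with their own number. With a replicate block all 76 calls were kept, and VARS was called lower in addition at 10 µM (-0.32, adjusted p = 0.0417) and 15 µM (-0.30, 0.0414), which took the cytosolic count at 10 µM from 0 to 1 and at 15 µM from 2 to 3. In those fits 1.42% and 2.73% of all genes were called. Cytosolic calls under Tg numbered 11 with a log2 fold change of at least 0.5 as well, and mitochondrial calls 0. With only the compared conditions the mitochondrial calls numbered 4, where 18.6% of all genes were called. The share of all genes with the minimum of 0.5 is not given here. That minimum gave 0 cytosolic and 0 mitochondrial calls at 15 and 30 µM AA132, and 10 and 0 for Tg against AA132 at 30 µM. The compared conditions alone gave 0 and 0 at both 15 and 30 µM, where 0.279% and 0.449% of all genes were called. Cytosolic calls at 6 µM numbered 1 with library totals and 1 with DESeq2, both higher, where 1.15% and 2.4% of all genes were called. At 10 µM they numbered 2 with totals (1 higher, 1 lower), 1 without the filter (lower) and 4 with DESeq2 (3 higher, 1 lower). The shares of all genes were 1.46%, 1.37% and 3.43%. At 15 µM they numbered 4 with totals (3 higher, 1 lower) and 5 with DESeq2 (4 higher, 1 lower), at shares of 2.89% and 5.87%. Mitochondrial calls numbered 1 at 10 µM with DESeq2, and without the filter 0 at 15 µM and 1 at 30 µM. Each call was lower, and the shares of all genes were 3.43%, 2.34% and 4.34%. Leaving out each library in turn gave 0 to 1 cytosolic calls at 6 µM, 0 to 5 at 10 µM, 1 to 4 at 15 µM and 0 to 2 for AA132 against AA147. The shares of all genes in these fits ran from 0.525% to 2.8%, 0.861% to 3.6%, 1.47% to 5.08% and 0.0% to 0.426%. At 10 and 15 µM these calls went both ways, such as 1 higher and 2 lower at 15 µM without vehicle library 2. The same step gave 0 to 1 mitochondrial calls at 10 µM, 0 to 1 at 15 µM and 0 to 3 at 30 µM, all lower. At 30 µM the share of all genes ran from 3.87% to 11.1%. The mitochondrial median under Tg ran from -0.113 (without vehicle library 2) to 0.023 (without vehicle library 1). All 23 calls that ended with only the compared conditions were in comparisons with vehicle, while Tg against AA132 at 30 µM kept its 21 calls. The cause of these shifts was not tested.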
